A study of Mus musculus with 7 samples.

Results

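The 39 Hox genes of the mouse genome were followed in cochlear supporting cells after inhibition of EZH2. They were taken from the 48709 genes of the deposited tables by dropping the version suffix of each gene identifier, matching it to GENCODE M21, and keeping every protein-coding gene named Hoxa, Hoxb, Hoxc or Hoxd with a number. No filter on low counts was applied to this choice. The genes lie in 4 clusters, with 11 genes in Hoxa, 10 in Hoxb, 9 in Hoxc and 9 in Hoxd.

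Hox genes code for homeodomain transcription factors that give cells their position along the body axis, and the order of the genes along a cluster follows the order of the body regions in which they are used. In the head and in other tissues that do not use them, the clusters are covered by the histone mark H3K27me3, which EZH2, the methyltransferase of Polycomb repressive complex 2 (PRC2), places on chromatin. The cochlea forms from the otic placode of the head, and Hox genes are best known there for the hindbrain beside it, where Hoxb1 acts next to the forming ear.

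Cochleae of mice at postnatal day 1 were kept as organ cultures and exposed for 48 h, and GFP-positive supporting cells, the non-sensory cells around the hair cells, were sorted by flow cytometry for RNA sequencing. There were 3 libraries from cochleae exposed to 10 µM GSK-343, an inhibitor of EZH2, 2 from cochleae exposed to trichostatin A (TSA) at 200 nM, which inhibits histone deacetylases, and 2 from cochleae that received the solvent DMSO. All groups shared the culture medium with EGF and FGF, the age, the exposure time and the sort. The labels give neither the strain nor the promoter behind the GFP. Nothing says that the libraries of a group came from different cultures or animals, and p-values therefore cover only the variation among these libraries, which may be technical.

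The total expected count per library was 3398893 to 4248336 with GSK-343, 2724381 and 2963228 with TSA, and 5124247 and 5974230 with DMSO. The labelled cell type was checked with 25 supporting cell markers, and all 25 had counts in every library. Their summed TPM was 27396 to 37589 with GSK-343, 10457 to 14403 with TSA and 5809 to 7705 with DMSO. The 12 hair cell markers summed to 333 to 710, 518 to 2036 and 83.1 to 112 TPM in these groups. The 12 markers of otic mesenchyme and fibroblasts, cells that can use Hox genes elsewhere in the body, summed to 93.1 to 241 TPM with GSK-343, with Tbx15 at 0, to 107 to 262 TPM with TSA, and to 75.5 to 87.1 TPM with DMSO, with Twist1 at 0. The 8 markers of skeletal muscle and cartilage summed to 1619 to 2361 TPM with GSK-343, 717 to 1020 TPM with TSA and 861 to 919 TPM with DMSO. Myod1, Myog and Acan were at 0 with GSK-343 and with DMSO, and Myog and Acta1 with TSA. In each group 4 of the 8 had counts in every library. The 10 neuronal markers summed to between 673 and 1227 TPM over all libraries, and the 10 markers of Schwann cells and glia to 275 to 477, 216 to 227 and 198 to 230 TPM. Markers of endothelium, leukocytes, red cells and melanocytes summed to at most 52.3 TPM in any library. The part of these cells in the results was not tested.

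The DMSO libraries stood apart from the others before any Hox gene was considered. The median difference between a gene's deposited length and its effective length, which is set by the fragment or read length used in quantification, was 210 to 213 bases with GSK-343, 208 to 210 bases with TSA and 49 bases with DMSO. Of their counts 62.5% and 63.4% fell on nuclear protein-coding genes, against 86.3% to 93.4% with GSK-343 and 78.2% to 85.4% with TSA. Gapdh, a glycolytic enzyme gene, had 673, 1123 and 796 CPM (counts scaled to a common library size, after TMM normalisation) with GSK-343, 417 and 316 CPM with TSA, and 56.6 and 82.3 CPM with DMSO. For any difference from DMSO, treatment and this difference between libraries cannot be told apart.

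Promoter sequences are shown for 3 members. Hoxd8 and Hoxa13 had counts in both TSA libraries and none with GSK-343, and Hoxa3 had the highest count of the Hoxa cluster in DMSO. Each sequence runs 5′ to 3′ from 250 bases before to 50 bases after a RefSeq start on build GRCm38.p6, and capitals mark each CG dinucleotide, which reads the same on both strands. The Hoxd8 promoter lies at chr2:74704365-74704664 on the plus strand, the Hoxa13 promoter at chr6:52260831-52261130 on the minus strand, and the Hoxa3 promoter, from a start inside the annotated gene, at chr6:52213018-52213317 on the minus strand.
Hoxd8: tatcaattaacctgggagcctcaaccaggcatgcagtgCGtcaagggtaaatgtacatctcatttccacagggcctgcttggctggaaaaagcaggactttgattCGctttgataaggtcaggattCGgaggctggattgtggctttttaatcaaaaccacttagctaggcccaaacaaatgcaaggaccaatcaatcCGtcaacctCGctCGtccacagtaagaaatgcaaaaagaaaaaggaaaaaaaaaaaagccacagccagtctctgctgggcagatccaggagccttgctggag
Hoxa13: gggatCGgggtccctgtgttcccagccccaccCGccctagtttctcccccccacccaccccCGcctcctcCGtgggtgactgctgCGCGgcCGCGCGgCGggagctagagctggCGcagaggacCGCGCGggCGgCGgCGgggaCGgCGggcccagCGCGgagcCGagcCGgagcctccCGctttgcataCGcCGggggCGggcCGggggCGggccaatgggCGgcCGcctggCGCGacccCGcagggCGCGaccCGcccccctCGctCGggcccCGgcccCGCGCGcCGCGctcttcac
Hoxa3: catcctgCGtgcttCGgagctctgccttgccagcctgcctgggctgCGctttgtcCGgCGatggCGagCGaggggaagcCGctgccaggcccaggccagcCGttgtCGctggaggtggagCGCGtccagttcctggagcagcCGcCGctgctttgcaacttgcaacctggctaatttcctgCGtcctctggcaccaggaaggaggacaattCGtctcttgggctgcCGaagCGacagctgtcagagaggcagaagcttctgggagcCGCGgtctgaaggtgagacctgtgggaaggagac
These windows hold 6 CG dinucleotides in Hoxd8, 45 in Hoxa13 and 20 in Hoxa3. The RefSeq table held 24 promoters for 22 of the 39 Hox genes, with a median of 14.5 CG dinucleotides and a range of 4 to 45. The median over all 32851 promoters of the table was 7. At least 20 CG dinucleotides were present in 45.8% of the Hox promoters and in 26.5% of all promoters. The mark itself and its distribution were not analysed here.

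Hox transcripts were almost absent after GSK-343. The 39 genes together had 0, 0 and 1 expected counts in the GSK-343 libraries, against 5 and 23 with TSA and 40.03 and 60.3 with DMSO. No GSK-343 library reached the sum of any TSA or DMSO library, and the raw sums of the TSA libraries lay below those of the deeper DMSO libraries. In CPM scaled by the library total, TSA had 1.84 and 7.76 and DMSO had 6.70 and 11.8, so TSA replicate 2 lay above DMSO replicate 1. In summed TPM the TSA libraries had 1.70 and 7.61 and the DMSO libraries 5.78 and 9.46, and these groups overlapped again. In summed TMM-normalised CPM, the level was 0.0771 ± 0.134 with GSK-343 (SD, n = 3), 4.07 ± 3.78 with TSA (SD, n = 2) and 12.4 ± 4.76 with DMSO (SD, n = 2). In summed TPM, which corrects for length, it was 0.0567 ± 0.0982, 4.66 ± 4.18 and 7.62 ± 2.60 in the same groups. Fewer cells that carry Hox transcripts and less Hox RNA per cell cannot be told apart in RNA from sorted pools.

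**Figure D1:**
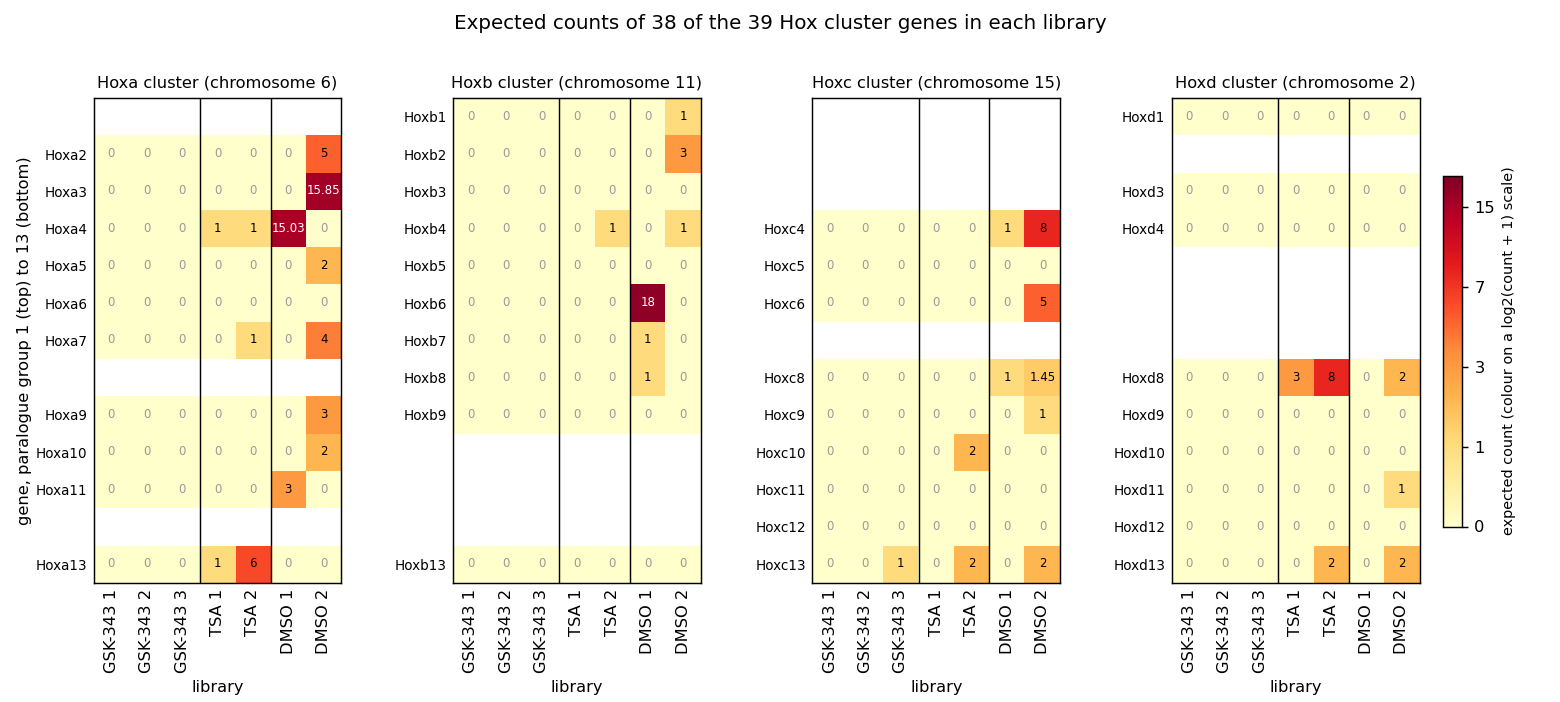
Expected count of 38 of the 39 Hox genes (rows, paralogue group 1 at the top) in each of the 7 libraries (columns, GSK-343 left, TSA middle, DMSO right), with colour on a log2(count + 1) scale and blank space where no gene is drawn. The GSK-343 columns hold a single count, in Hoxc13, and the 3 values of 10 or more counts all lie in DMSO columns.

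These sums rest on few reads. Together the GSK-343 libraries had 1 Hox count among 11466027, the TSA libraries 28 among 5687609 and the DMSO libraries 100 among 11098478. Divided by these totals, GSK-343 had 0.0177 of the TSA rate, with an exact 95% counting interval of 0.000433 to 0.107, and 0.00968 of the DMSO rate, with an interval of 0.000243 to 0.0552. TSA had 0.546 of the DMSO rate, with an interval of 0.346 to 0.838. Divided by TMM effective library sizes instead, the ratios were 0.0208 for GSK-343 to TSA (interval 0.00051 to 0.126), 0.00693 for GSK-343 to DMSO (0.000174 to 0.0395) and 0.332 for TSA to DMSO (0.210 to 0.510). Reads amplified by PCR are not independent molecules, so these intervals and the floors below cover counting error only. They hold no spread between libraries, and no p-value was computed for the sums. The mean level with TSA relative to DMSO was 0.330 in TMM-normalised CPM, 0.546 without TSA replicate 1 and 0.113 without TSA replicate 2. It was 0.520 with scaling by total count and 0.611 in TPM.

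A gene was called detected with at least 1 count. Of the 39 Hox genes, 0, 0 and 1 were detected with GSK-343, 3 and 8 with TSA, and 7 and 18 with DMSO. In percent this was 0, 0 and 2.56% with GSK-343, 7.69% and 20.5% with TSA, and 17.9% and 46.2% with DMSO. Read at the depth of the shallowest library, the shares were 0, 0 and 1.64% with GSK-343, 7.69% and 19.8% with TSA, and 11.96% and 35.4% with DMSO. At this equal total count the GSK-343 libraries again lay below all others, while the TSA and DMSO libraries overlapped, with TSA replicate 2 above DMSO replicate 1. A count of 0 in a single gene allows up to 3 counts, which is 0.694 to 0.850 CPM with GSK-343, 0.840 and 0.880 CPM with TSA, and 0.674 and 0.782 CPM with DMSO.

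Olfactory receptor genes, which supporting cells are not known to use, were counted widely in DMSO and seldom elsewhere. Of 1065 such genes, a set chosen after its values were seen, 9, 11 and 8 were detected with GSK-343, 16 and 10 with TSA, and 394 and 652 with DMSO. That was 0.751% to 1.03% with GSK-343, 0.939% and 1.502% with TSA, and 37.0% and 61.2% with DMSO. At the depth of the shallowest library the DMSO shares were still 27.8% and 51.2%. The share of olfactory receptor genes detected in DMSO was above that of Hox genes in each DMSO library, while in each TSA library the Hox share was above the olfactory share. Over all 21682 nuclear protein-coding genes, 61.5% to 64.3% were detected with GSK-343, 67.3% and 69.2% with TSA, and 75.4% and 81.9% with DMSO. The part of this broad low-level signal in the Hox counts of DMSO was not tested.

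**Figure D2:**
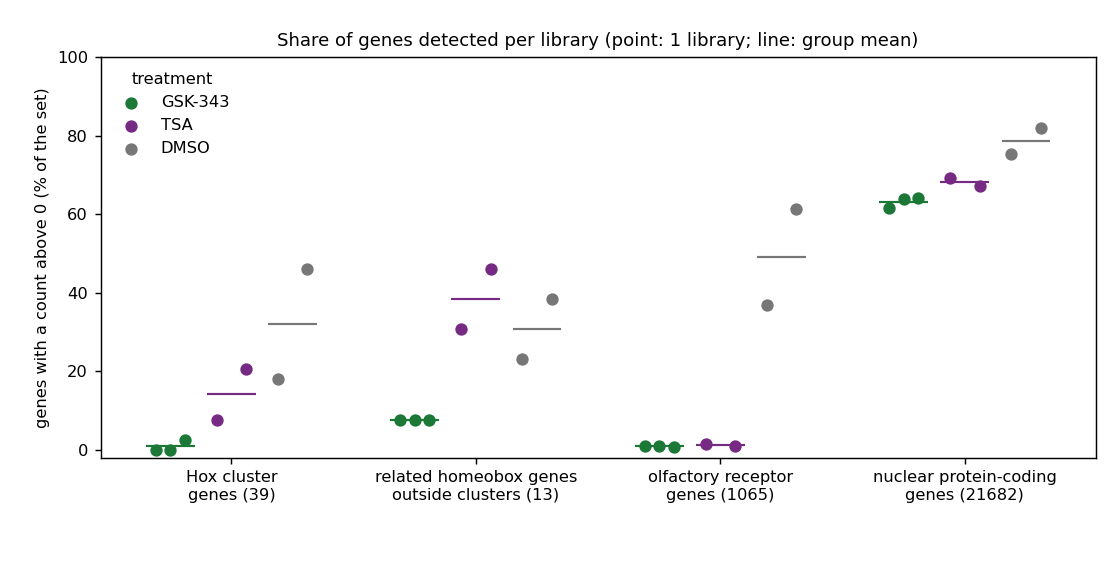
Share of genes with a count above 0 (percent of each set, vertical axis) for the Hox cluster genes, related homeobox genes outside the clusters, olfactory receptor genes and all nuclear protein-coding genes; each point is 1 library, each line a group mean, in the order GSK-343, TSA, DMSO. In DMSO 37.0% and 61.2% of the olfactory receptor genes have a count, against 17.9% and 46.2% of the Hox genes.

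Of the 39 members, 14 had no count in any library. They were Hoxa6, Hoxb3, Hoxb5, Hoxb9, Hoxb13, Hoxc5, Hoxc11, Hoxc12, Hoxd1, Hoxd3, Hoxd4, Hoxd9, Hoxd10 and Hoxd12. Counts were found in 1 library for 16 genes, in 2 libraries for 6 and in 3 or more for 3 (Hoxa4, Hoxc13 and Hoxd8). By group, 1 gene was counted at least once with GSK-343, 8 with TSA and 23 with DMSO. Of these, 17 genes were counted in DMSO alone, 2 in TSA alone (Hoxa13 and Hoxc10) and 5 in TSA and DMSO but not with GSK-343 (Hoxa4, Hoxa7, Hoxb4, Hoxd8 and Hoxd13). No gene was counted in every GSK-343 library, while 3 were counted in both TSA libraries and 2, Hoxc4 and Hoxc8, in both DMSO libraries.

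The anterior genes, which pattern the hindbrain and the branchial arches, were counted mainly in DMSO. The 12 genes of paralogue groups 1 to 4 summed to 0 counts with GSK-343, 3 with TSA and 50.9 with DMSO. Hoxa3, a gene of the pharyngeal arches (chr6:52169062-52213336, minus strand, mm10), had 0, 0 and 0 counts with GSK-343, 0 and 0 with TSA, and 0 and 15.85 with DMSO. Hoxa4, whose annotated span lies inside that of Hoxa3 (chr6:52189671-52191753, minus strand), had 0, 0 and 0 counts with GSK-343, 1 and 1 with TSA, and 15.03 and 0 with DMSO. For both genes a single DMSO library held nearly all counts, and it was not the same library. Their DMSO counts were not whole, so the authors' counting had divided reads with another gene, and these counts are uncertain. In each of these libraries the other gene of the pair had 0 counts, and the gene that shared the reads was not identified. Hoxb1, which specifies a hindbrain segment next to the developing ear, had 1 count, in DMSO replicate 2. Hoxa2, the selector gene of the arch that forms the stapes of the middle ear, had 5 counts in that library and 0 in the other 6. Hoxc4 had 1 and 8 counts in DMSO and none in the treated libraries.

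The central genes divided between DMSO and TSA. The 11 genes of paralogue groups 5 to 8 summed to 0 counts with GSK-343, 12 with TSA and 35.5 with DMSO. Hoxb6, a gene of the trunk (chr11:96292476-96301569, plus strand), had 0, 0 and 0 counts with GSK-343, 0 and 0 with TSA, and 18 and 0 with DMSO. This was the highest count of any member, and the other 6 libraries had none. Hoxd8 (chr2:74704615-74707933, plus strand), which was singled out after its values were seen, had 0, 0 and 0 counts with GSK-343, 3 and 8 with TSA, and 0 and 2 with DMSO. The TSA and GSK-343 libraries did not overlap for Hoxd8, and the TSA libraries also lay above both DMSO libraries. With TSA the mean of Hoxd8 was 1.59 CPM, which was 2.10-fold the floor of 3 counts per library with GSK-343. That ratio was 3.10-fold without TSA replicate 1 and 1.11-fold without TSA replicate 2. It leaves out the counting error of the TSA counts, so it is not a lower bound on the difference.

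The posterior genes, used in the limbs, the urogenital tract and the tail, included the only count after GSK-343. The 16 genes of paralogue groups 9 to 13 summed to 0, 0 and 1 counts with GSK-343, 1 and 12 with TSA, and 3 and 11 with DMSO. Their mean summed level was 0.0771 CPM after TMM with GSK-343, 1.90 with TSA and 1.77 with DMSO, and in TPM it was 0.0567, 1.90 and 1.06. Replicate 2 of TSA and of DMSO held most of these counts, and the TSA and DMSO libraries overlapped. Hoxa13, a gene of digits and the genital tract (chr6:52257694-52260880, minus strand), had 0, 0 and 0 counts with GSK-343, 1 and 6 with TSA, and 0 and 0 with DMSO. Hoxc13, which controls hair keratin genes (chr15:102921103-102928814, plus strand), had 0, 0 and 1 counts with GSK-343, 0 and 2 with TSA, and 0 and 2 with DMSO. It was the single member with a count in all 3 groups, and Hoxa13 and Hoxc13 were both singled out after their values were seen. Hoxd13, the digit gene of the Hoxd cluster, had 2 counts in TSA replicate 2, 2 in DMSO replicate 2 and none elsewhere.

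By cluster, Hoxa summed to 0 counts with GSK-343, 10 with TSA and 50.9 with DMSO, and Hoxb to 0, 1 and 25. Hoxc summed to 1, 4 and 19.5 counts in these groups, and Hoxd to 0, 13 and 5. Hoxd was the only cluster whose sum was larger with TSA than with DMSO, and 11 of its 13 TSA counts were on Hoxd8. Per library it had 3 and 10 counts with TSA and 0 and 5 with DMSO, so these libraries overlapped.

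No Hox gene had enough reads for the test across genes. None of the 39 passed the filter on low counts that left 14907 genes for edgeR's quasi-likelihood F test, so 0 members were tested or called with it. In that test 10.7% of the genes passed the Benjamini-Hochberg threshold of 0.05 for GSK-343 against TSA, 39.6% for GSK-343 against DMSO and 29.2% for TSA against DMSO. Without the filter, 34021 genes were tested, among them 25 Hox genes, and edgeR called 0 of the 25 in each comparison. The share called over all genes of this test was 5.73% for GSK-343 against TSA, 22.3% for GSK-343 against DMSO and 13.4% for TSA against DMSO. At an unadjusted p under 0.05, edgeR found 1, 4 and 2 Hox genes in these comparisons, where 14.8%, 34.1% and 24.8% of all genes were below that level. DESeq2's Wald test without the filter found 0 Hox genes at an unadjusted p under 0.05 and gave them no adjusted p. With limma on log2(TPM + 1) without the filter, 0, 0 and 1 Hox genes were called, where 0.0145%, 23.3% and 22.1% of all genes were. The 1 gene was Hoxd8, higher with TSA than with DMSO.

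For GSK-343 against TSA, the gene below an unadjusted p of 0.05 was Hoxd8 (adjusted p = 0.191, edgeR). It was lower with GSK-343, with counts in 2 of 2 TSA libraries and 0 of 3 GSK-343 libraries, and it did not pass the threshold. Hoxa13 had the same pattern of libraries and an adjusted p of 0.363 in edgeR's test. For GSK-343 against DMSO, the 4 genes were Hoxb6 (adjusted p = 0.0522), Hoxa3 (0.0554), Hoxa4 (0.0664) and Hoxc4 (0.141) in edgeR's test. Hoxb6, Hoxa3 and Hoxa4 each owed this to 1 of the 2 DMSO libraries. For TSA against DMSO, the genes were Hoxb6 (adjusted p = 0.171) and Hoxa3 (0.177). With so few counts the fitted fold changes depend on the constant added to 0, and no size is read from them.

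The rest of the 4 cluster intervals held few reads too. The clusters span 105 kb for Hoxa, 174 kb for Hoxb, 116 kb for Hoxc and 96.8 kb for Hoxd. Besides the Hox genes, 46 annotated genes lie inside them, 7 of them microRNA genes, and 36 of the 46 had no count in any library. The other 10 summed to 0 counts with GSK-343, 5 with TSA and 13.2 with DMSO. The long noncoding RNA Haglr of the Hoxd cluster had 4 counts in TSA replicate 1, and the antisense RNA Hoxaas3 had 1 there. Hotair, a long noncoding RNA of the Hoxc cluster known for binding PRC2, had 0 counts throughout. The sources used here do not say whether counting used the strand, so reads of a Hox gene and of its antisense partner cannot be told apart.

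Just outside the clusters, genes were transcribed in all groups. Of 20 protein-coding genes within 250 kb, 14 had counts in every library. The 20 genes together had 5031, 4988 and 5803 counts with GSK-343, 3114 and 2688 with TSA, and 6368 and 5395 with DMSO. Evx1 and Evx2, homeobox genes next to the posterior ends of Hoxa and Hoxd, were not among the 14. Evx1 had no count in any library, and Evx2 had 0, 0 and 0 counts with GSK-343, 1 and 2 with TSA, and 30 and 0 with DMSO.

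**Figure D3:**
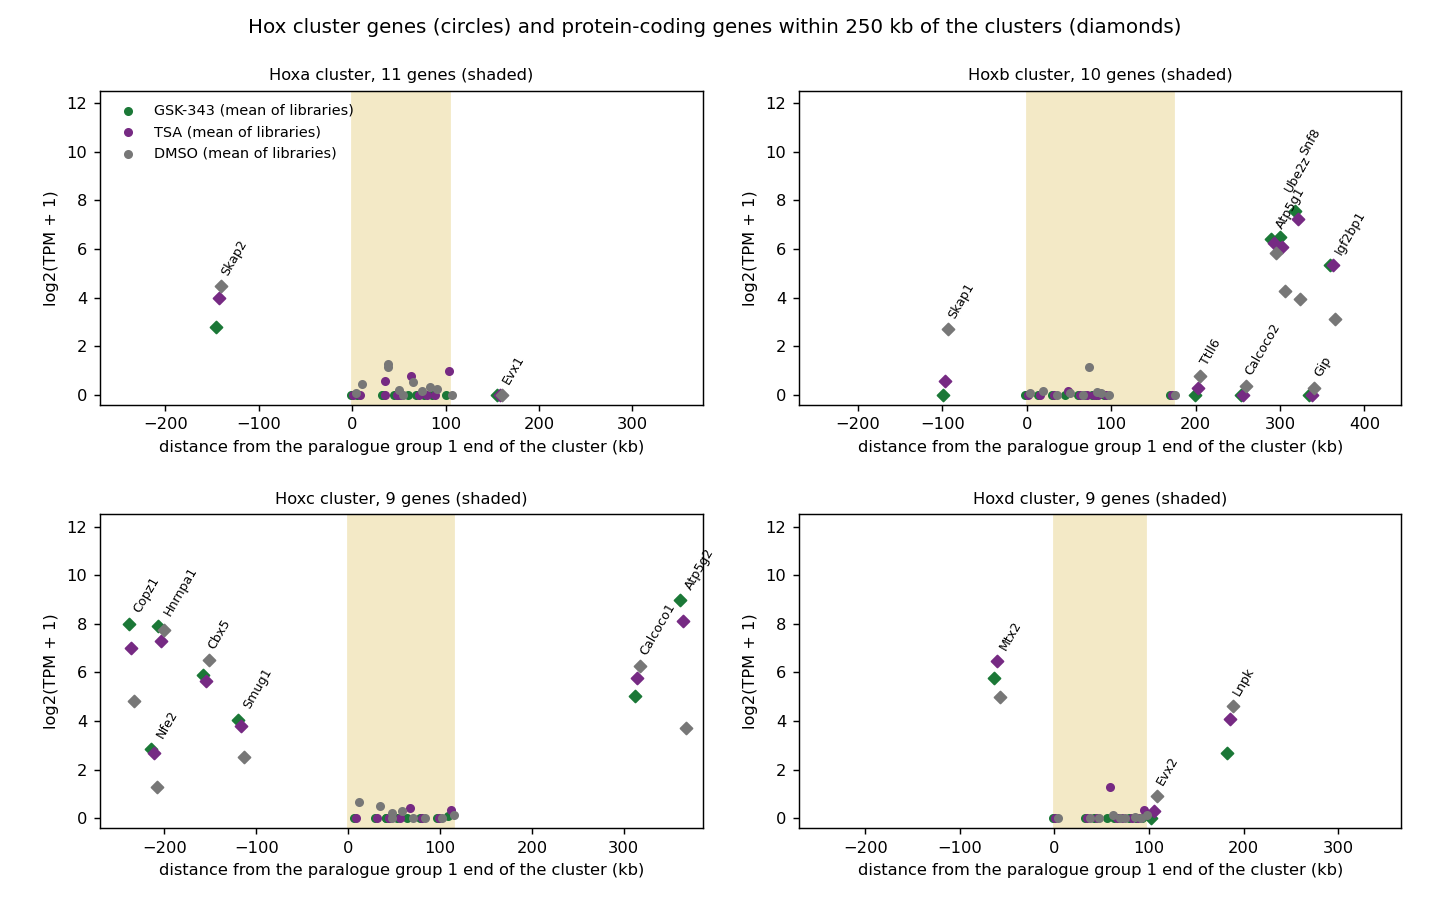
Mean level over the libraries of each group, as log2(TPM + 1) on the vertical axis, of the Hox genes (circles, cluster shaded) and of the protein-coding genes within 250 kb (diamonds, named) against distance in kb from the paralogue group 1 end. The Hox genes lie near 0 in all groups, while 14 of the 20 flanking genes have counts in every library.

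Of these 20 flanking genes 15 were tested, and against TSA 1 rose with GSK-343 and 0 fell, beside 5.68% and 5.04% of all genes. This gene was Copz1, a subunit of the coatomer of transport vesicles (log2 fold change 1.41 ± 0.35 SE, adjusted p = 0.0228, edgeR). Against DMSO, 5 rose and 5 fell with GSK-343, beside 18.1% and 21.5% of all genes. Atp5g2, a subunit of the mitochondrial ATP synthase, had 132 ± 12.51 CPM with GSK-343 (SD, n = 3) and 5.54 ± 3.99 CPM with DMSO (SD, n = 2). Lnpk, an endoplasmic reticulum protein gene next to Hoxd, fell by 2.63 on the log2 scale (SE 0.50, adjusted p = 0.001, edgeR). Snf8 and Copz1 rose by 2.65 and 2.31 on the log2 scale. The median log2 fold change of the 15 genes was 0.53 against TSA and 0.04 against DMSO, beside 0.00 and -0.04 over all genes tested. For TSA against DMSO 2 flanking genes rose and 5 fell, beside 13.1% and 16.1% of all genes. Snf8 and Atp5g2 rose, by 2.11 and 3.51 on the log2 scale, and Lnpk was among those that fell, by 1.59, while Copz1 was not called. With scaling by total count, the 2695 genes that rose and 3208 that fell for GSK-343 against DMSO became 3948 and 2273, and the 846 and 752 for GSK-343 against TSA became 431 and 1020.

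The 13 genes of the same homeobox class that lie outside the clusters were near 0 as well. The number detected was 1, 1 and 1 with GSK-343, 4 and 6 with TSA, and 3 and 5 with DMSO. They summed to 4 counts with GSK-343, 26 with TSA and 50 with DMSO, and none passed the filter. Mnx1, a motor neuron and pancreas gene, had 0 counts in each GSK-343 library, 2 and 6 with TSA and 0 in both DMSO libraries. Of the 50 DMSO counts, 30 were on Evx2 and 13 on Cdx4, a regulator of Hox genes in the embryo, all in DMSO replicate 1.

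The partners of Hox proteins were expressed, unlike the Hox genes. All 9 TALE homeodomain cofactor genes, whose products bind DNA together with Hox proteins, passed the filter. Against TSA, 1 of the 9 rose with GSK-343 and 1 fell, beside 5.68% and 5.04% of all genes tested, with a median log2 fold change of -0.28. Meis2 had 0, 0 and 1 counts with GSK-343, 9 and 42 with TSA, and 8 and 22 with DMSO, so the GSK-343 libraries lay below all others. It fell with GSK-343 against TSA (adjusted p = 0.015, edgeR) and against DMSO (adjusted p = 0.00949). It passed the filter through its TSA counts, and no GSK-343 library reached the filter's level. The filter thus favoured a difference without forcing the call, which adds little to the counts. Pbx2 had 82.9 ± 10.2 CPM with GSK-343 (SD, n = 3), 26.7 ± 4.19 CPM with TSA and 23.0 ± 10.7 CPM with DMSO (SD, n = 2 each). It rose against TSA by 1.63 ± 0.41 on the log2 scale (adjusted p = 0.0233, edgeR).

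Against DMSO, 3 of the 9 cofactor genes rose and 2 fell with GSK-343, beside 18.1% and 21.5% of all genes tested, with a median of -0.49. Pknox1 had 70.0 ± 14.1 CPM with GSK-343 and 18.5 ± 11.9 CPM with DMSO, and Pbx4 had 5.71 ± 2.97 and 0.243 ± 0.0255 CPM. Both rose, as did Pbx2. With 1 and 1 counts in DMSO, Pbx4 passed the filter only through the treated libraries. With TSA against DMSO, 1 cofactor gene rose and 1 fell, beside 13.1% and 16.1% of all genes tested, with a median of 0.40. The gene that rose was Pbx4, while Pbx2 and Pknox1 were not called.

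**Figure D4:**
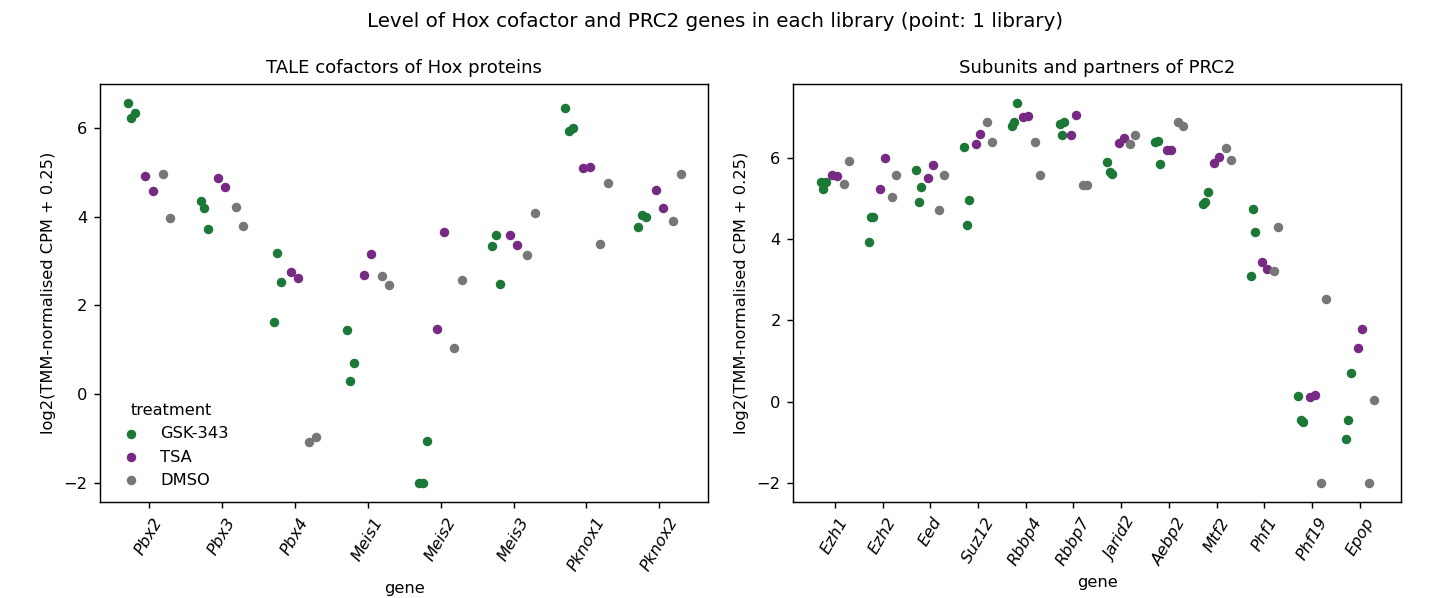
TMM-normalised level of 8 of the 9 TALE cofactor genes (left) and the 12 genes of PRC2 subunits and partners (right), as log2(CPM + 0.25), with 1 point per library in the order GSK-343, TSA, DMSO. Meis2 lies lowest in the 3 GSK-343 libraries, with 0, 0 and 1 counts, and Ezh2 is expressed in every library.

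Most genes of PRC2, the complex that GSK-343 inhibits, were expressed in all groups. All 12 had counts in every GSK-343 and TSA library and 10 in every DMSO library, with Phf19 and Epop at 0 in DMSO replicate 1. Ezh2 itself had 53, 94 and 99 counts with GSK-343, 132 and 216 with TSA, and 144 and 182 with DMSO. In normalised terms this was 20.3 ± 4.54 CPM with GSK-343 (SD, n = 3), 50.2 ± 18.7 CPM with TSA and 39.9 ± 10.6 CPM with DMSO (SD, n = 2 each). In TPM it was 37.4, 34.1 and 47.4 with GSK-343, 86.7 and 139.7 with TSA, and 33.3 and 48.9 with DMSO. The GSK-343 and DMSO libraries thus overlapped in TPM. The GSK-343 libraries lay below the others in counts, but the difference did not pass the threshold against TSA (log2 fold change -1.30 ± 0.42 SE, adjusted p = 0.0578, edgeR) or against DMSO (-0.97 ± 0.42 SE, adjusted p = 0.0773). Eed, the subunit that reads H3K27me3, had 39.9 ± 10.8 CPM with GSK-343, 50.7 ± 7.94 CPM with TSA and 36.6 ± 15.3 CPM with DMSO.

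Of 11 PRC2 genes tested, 0 were called for GSK-343 against TSA by edgeR, with a median log2 fold change of -0.35, and under the alternatives 0 to 2 were called. Against DMSO, 2 rose and 2 fell with GSK-343, near the 18.1% and 21.5% of all genes tested, with a median of -0.31. Rbbp7 and Rbbp4, histone chaperones shared with other complexes, rose by 1.44 and 1.00 on the log2 scale. Mtf2, which brings the complex to CpG islands, fell by 1.12 on the log2 scale (SE 0.35, adjusted p = 0.0188, edgeR). Suz12, a core subunit, had 42.3 ± 29.9 CPM with GSK-343 and 99.8 ± 24.2 CPM with DMSO (adjusted p = 0.0447, edgeR). The Suz12 call was lost in 14 of 19 alternatives, among them the omission of either DMSO library. Of the same genes, 1 rose and 0 fell with TSA against DMSO, beside 13.1% and 16.1% of all genes tested.

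Of the 20 genes of PRC1, the complex that binds H3K27me3, 3 rose and 2 fell with GSK-343 against TSA, beside 5.68% and 5.04% of all genes tested. With GSK-343 against DMSO 6 rose and 3 fell, beside 18.1% and 21.5%, and with TSA against DMSO 4 rose and 2 fell, beside 13.1% and 16.1%. The medians were 0.14, 0.32 and 0.58 on the log2 scale. Among 12 trithorax and H3K27 demethylase genes, which oppose Polycomb at Hox clusters, 2 rose and 0 fell with GSK-343 against TSA, beside 5.68% and 5.04% of all genes tested, with a median of 0.43. These were Kmt2b, a methyltransferase of H3K4 (61.7 ± 10.1 CPM with GSK-343 and 18.3 ± 9.73 CPM with TSA), and Men1, the scaffold that holds such enzymes at Hox genes (109 ± 11.5 and 44.9 ± 2.07 CPM). With DMSO, Kmt2b had 88.7 ± 0.268 CPM, above its level with GSK-343, and Men1 had 20.4 ± 0.612 CPM. Kmt2b was not called for GSK-343 against DMSO (adjusted p = 0.292, edgeR), and it fell by 2.27 on the log2 scale with TSA against DMSO (adjusted p = 0.00232, edgeR). Against DMSO, 2 rose and 4 fell with GSK-343, beside 18.1% and 21.5% of all genes tested, with a median of -0.68. Men1 and Wdr5, another shared subunit, rose by 2.41 and 1.92 on the log2 scale. Kmt2d and Kmt2c, paralogous H3K4 methyltransferases, fell by 3.85 and 1.24. With TSA against DMSO 2 of the 12 rose and 4 fell, beside 13.1% and 16.1%. Men1 and Wdr5 rose there too, by 1.13 and 1.41, and Kmt2d fell by 4.26, while Kmt2c was not called.

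Retinoic acid is the classical inducer of Hox genes, and genes of its pathway and other inputs to the clusters formed a list of 19, of which 15 were tested. With GSK-343 against TSA, 0 rose and 2 fell, beside 5.68% and 5.04% of all genes tested, with a median of -0.21. Aldh1a3, which makes retinoic acid, had 2, 14 and 3 counts with GSK-343, 68 and 58 with TSA, and 8 and 15 with DMSO, and it fell by 3.50 on the log2 scale against TSA (SE 0.87, adjusted p = 0.0225, edgeR). Crabp2, which carries retinoic acid to its receptors, had 2, 16 and 16 counts with GSK-343, 84 and 53 with TSA, and 27 and 47.6 with DMSO, and it fell by 2.81 against TSA (SE 0.77, adjusted p = 0.0313). Both TSA libraries lay above all others for these genes. Against DMSO, 2 rose and 1 fell with GSK-343, beside 18.1% and 21.5% of all genes tested, with a median of -0.03. Rarb, a receptor that retinoic acid itself induces, and Rxrb, a partner receptor, rose by 2.97 and 1.90 on the log2 scale. Cyp26b1, which breaks retinoic acid down, had 862 ± 143 CPM with GSK-343 and 2046 ± 31.0 CPM with DMSO. With TSA, 2 genes of the list rose and 2 fell against DMSO, beside 13.1% and 16.1%. Rarb was among those that rose, by 2.18 on the log2 scale, and Cyp26b1 among those that fell, by 2.14, while Rxrb was not called. Aldh1a3 against TSA and Rarb against DMSO passed the filter only through groups in which they were higher, as did the flanking gene Atp5g2 against DMSO.

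Without TSA replicate 2 the 7 calls against TSA named above (Meis2, Pbx2, Copz1, Kmt2b, Men1, Aldh1a3 and Crabp2) were lost. Calls of PRC1 genes, of Gapdh and of the homeobox gene Irx3 against TSA are not among these 7. The fit without TSA replicate 2 has 1 TSA library, assumed to vary like the other groups, so it cannot settle a single gene. The fit without TSA replicate 1 also has 1 TSA library and lost fewer of the 7 calls. The 7 calls thus leaned more on TSA replicate 2. Without TSA replicate 2 the log2 fold changes kept their sign, at 1.31 for Kmt2b, 1.34 for Men1 and -4.49 for Meis2. Without TSA replicate 1, 4 of the 7 calls were lost (Pbx2, Men1, Aldh1a3 and Crabp2). Against DMSO, the calls of Meis2, Mtf2, Rbbp4, Suz12, Kmt2c and Cyp26b1 were lost with at least 1 library left out, and those of Pbx2, Pknox1, Pbx4, Rbbp7, Kmt2d, Men1, Wdr5, Rarb, Rxrb, Atp5g2, Snf8, Copz1 and Lnpk held with each library left out. Removing a GC and length trend ended the calls of Pbx2, Mtf2, Suz12, Kmt2c, Rxrb and Lnpk against DMSO (edgeR adjusted p 0.0961 to 0.715). Against TSA it ended those of Pbx2 and Men1 (edgeR adjusted p 0.0886 and 0.236). With limma on log2(TPM + 1), the calls of Meis2, Pbx2, Kmt2b, Crabp2 and Copz1 against TSA were lost (adjusted p = 0.530 for Kmt2b). Those of Men1 and Aldh1a3 held. Against DMSO, limma lost the calls of Meis2, Rbbp4, Suz12, Kmt2c, Cyp26b1 and Lnpk, and the other named calls held. Scaling by total count moved the median of all genes to 0.42 for GSK-343 against DMSO and to -0.20 for GSK-343 against TSA, and the medians of the cofactor, PRC2, retinoic acid and flanking lists against DMSO took either sign across the alternatives.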

How the data were processed

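RNA of GFP-positive cells was sequenced in 7 libraries. The submitters' processing notes name STAR, RSEM, DESeq2 and the build mm10. The authors deposited RSEM output with an expected count and a TPM value for each gene, per the file headers. Expected counts divide ambiguous reads among genes, and TPM values correct for effective length and add up to the same total in each library. Of 48709 genes, 48349 matched GENCODE M21 without version, among them all 39 Hox genes (38 with the same version). The release used by the authors is not given in the sources used here. Promoters are from RefSeq.

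Expected counts were rounded and tested in edgeR 4.0.16 (R 4.3.3) with TMM factors, its filterByExpr function and robust quasi-likelihood F tests, with all 7 libraries and 3 groups in 1 model, which left 4 residual degrees of freedom. The p-values were adjusted over all genes tested (Benjamini-Hochberg), with 0.05 as threshold. An SE was derived by dividing the absolute log2 fold change by the root of F. Members that failed the filter were described by counts and tested without it. Ratios of summed counts have exact binomial intervals at 95%. Detection at equal depth is the expected value after thinning to the smallest total. Fits were tested on simulated data.

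The 39 members and the gene lists were chosen with earlier results of these data known. Named with their count in each library are Hox genes with at least 10 counts in a library. Ezh2, Eed, Suz12, Evx1, Evx2 and Gapdh are always named. Up to 4 called members of the other lists are named by smallest adjusted p for GSK-343, some with a fold change alone. This was not done for PRC1, whose genes are counted but not named, or for the inner ear homeobox genes. Other genes named by their counts were chosen after their values were seen. Single values of 2 genes are not reported here; both stay in the counts of their lists.

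Other settings were no filter, a minimum of 50 counts in 2 libraries, total count scaling, DESeq2 size factors, a fit of the compared groups alone, thinning, leaving out each library, a block for the replicate number, DESeq2 1.42.0, limma 3.58.1 on TPM, removal of a GC and length trend, and nuclear protein-coding genes only. No filter together with each of these, a quasi-dispersion that was not robust, and all settings for the other lists were added after the data were seen. Replicates of a group correlated at 0.880 to 0.940 in log2 CPM, with a chi-square per degree of freedom of 15.05 to 44.2, so none was a duplicate. Python 3.11.15 with numpy 2.4.6, pandas 2.3.3, scipy 1.17.1 and matplotlib 3.10.9 served for tables and figures.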

Additional observations from a re-analysis of the deposited data

How the results depend on the processing

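With the filter on low counts, no Hox gene was tested in 15 of 19 alternatives per comparison and none was called in GSK-343 against TSA or TSA against DMSO. With each library left out, 0 to 1 were called for GSK-343 against DMSO. Without the filter, no alternative called a Hox gene for GSK-343 against TSA (0 of 19). For GSK-343 against DMSO, 5 of 19 did: 2 genes with DESeq2 size factors, 3 after removal of a GC and length trend, 1 with limma on log2(TPM + 0.1), and 0 to 2 with each library left out; the calls without a DMSO library rest on 1 DMSO library, assumed to vary like the other groups. For TSA against DMSO, limma called 1 gene on log2(TPM + 1) and 3 on log2(TPM + 0.1). Deviations of same-numbered libraries from their group means had correlations of -0.0857 to 0.0402. In a group of 2 libraries the deviations mirror each other, so these values cannot show whether the numbers pair the libraries. With the replicate number as a block, 0 Hox genes were called with and without the filter. The calls over all filtered genes then numbered 852 for GSK-343 against TSA and 4465 for GSK-343 against DMSO. 

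The fitted log2 fold change of Hoxa4 for TSA against DMSO, whose size depends on the constant added to 0, changed sign, to 3.28 without DMSO replicate 1 and 0.18 with limma on log2(TPM + 0.1), both without the filter. Eed for GSK-343 against DMSO (0.12) was -0.16 after removal of the GC and length trend, -0.0090 with a minimum of 50 counts, and -0.21 to 0.65 with each library left out. All 15.03 DMSO counts of Hoxa4 lay in DMSO replicate 1, so without that library its DMSO count was 0. The cause of the other changes was not tested. The summed level with TSA relative to DMSO (0.330) was 0.520 with total count scaling, 0.611 in TPM, and 0.113 to 0.546 with each library left out. Across the alternatives the median log2 fold change against DMSO with GSK-343 was -0.85 to 0.15 for the cofactors, -0.58 to 0.45 for PRC2, -0.61 to 0.43 for retinoic acid and other inputs, and -0.65 to 0.82 for the flanking genes. The summed level with GSK-343 was 0 relative to either group without GSK-343 replicate 3, and at most 0.055 relative to TSA and 0.00936 relative to DMSO. Hox genes detected with GSK-343 (1) numbered 0 at 3 counts and 0 at 5 counts, 0.641 and 0.629 after thinning to the smallest total or protein-coding sum, and 0 to 1 with each library left out. With TSA (8) they numbered 2, 2, and 3 to 8 with each left out, and with DMSO (23) 10, 6, and 7 to 18. Depth limits these values, since 1 to 100 counts per group cannot show changes of single Hox genes below the floor of 3 counts per library.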

Other observations

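Some homeobox genes outside the Hox family were expressed in these cells. A list of 22 homeobox genes known from inner ear development was chosen after the data were seen, and 13 of them passed the filter on low counts. Hmx2 and Hmx3 had no count in any library. With GSK-343 against TSA, 1 of the 13 rose and 0 fell in edgeR's test, beside 5.68% and 5.04% of all genes tested. Against DMSO, 3 rose and 3 fell with GSK-343, beside 18.1% and 21.5%, and 5 rose and 3 fell with TSA, beside 13.1% and 16.1%. The 3 that rose with GSK-343 were the hair cell genes Pou4f3, Lhx3 and Barhl1, which also rose with TSA. In DMSO, Lhx3 had 3 and 2 counts and Barhl1 had 3 and 3, so both passed the filter only through treated libraries. The 3 that fell with GSK-343 were Prox1, Emx2 and Pax2. Pax2 had 145 and 8 counts in DMSO, and no GSK-343 library reached the filter's level for it. The 12 hair cell markers, Pou4f3 among them, summed to 333 to 710 TPM with GSK-343, 518 to 2036 TPM with TSA and 83.1 to 112 TPM with DMSO, and the part of hair cells in these calls was not tested. The 22 genes together had 15366 counts over the 3 GSK-343 libraries, 7020 over the 2 TSA libraries and 20195 over the 2 DMSO libraries, against 1, 28 and 100 for the 39 Hox genes.

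Vomeronasal receptor genes, a second set chosen after its values were seen, followed the olfactory receptors. Of 291 genes, 3, 5 and 2 were detected with GSK-343, 8 and 10 with TSA, and 99 and 143 with DMSO. The median GC content of the transcripts was 53.5% for Hox genes, 48.7% for all nuclear protein-coding genes and 39.02% for olfactory receptor genes, and the median length was 1816, 1989 and 954 bases.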
